A study of Homo sapiens with 22 samples.

Results

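The change of gene expression over 2 days of culture, from day 12 to day 14, was described in haematopoietic progenitor cells that received no doxycycline (UT). The comparison was set by arm and day in the labels. It puts the 2 UT day 14 libraries against the 2 UT day 12 libraries, which makes 4 of the 22 libraries of the series, and it covers all genes. The cells were differentiated from H1, a line of human embryonic stem cells in wide use, and polyA-selected RNA was sequenced. In the other arm of the series (DOX), doxycycline turns on ectopic MYC, a transcription factor. All UT and DOX libraries carry the same line name, doxee17, and the same batch label, so UT cells are the uninduced control of that line, and both groups compared here are uninduced. The clone, the promoter of the ectopic copy and the day doxycycline was added are not stated in these sources. The labels do not say whether the replicates of a day came from separate cultures. The p-values therefore reflect just how far these libraries vary, and that variation may be technical.

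Blood progenitors arise in stem cell cultures from endothelium-like cells, and they can become red cells, platelet-forming megakaryocytes or myeloid cells. Myeloid cells include neutrophils and eosinophils, which carry toxic proteins in granules, mast cells and basophils, and monocytes with their relatives, the macrophages and dendritic cells. Granule proteins are made in order: those of primary granules come first and those of later granules follow. MYC drives growth, ribosome production and cell division in dividing progenitors and declines as many blood cells mature.

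Total counts of the 4 libraries were between 33723570 and 40664541, and 20115 of 60240 genes passed the filter on low counts. Levels are given as CPM, a gene's counts relative to the library's total, scaled by TMM, a factor that evens out library composition. CPM does not correct for transcript length, so only levels of 1 gene are compared. Mitochondrially encoded genes took 17.45% and 9.96% of counts on UT day 14, against 10.3% and 10.9% on UT day 12, so UT day 14 replicate 1 stands apart. Across genes, log2 CPM of the replicates correlated with r = 0.978 on UT day 14 and r = 0.989 on UT day 12, as a description. Scatter of counts between replicates, as a chi-square per degree of freedom, was 100.1 on UT day 14 and 7.99 on UT day 12. It was 10.99 to 44.56 in the other groups of the series, so UT day 14 had the highest value. Mitochondrially encoded genes enter this value, and genes with many counts weigh most in it. The part of the gap in mitochondrial share was not tested. The fit shares 1 estimate of spread over all groups, so p-values of this step may be too small. On a line drawn in log2 CPM from the mean of UT day 12 (position 0) to the mean of UT day 16 (position 1), the UT day 14 replicates lay at 0.455 and 0.497. The end of this line differs in composition, as mitochondrially encoded genes took 55.9% and 53.5% of counts on UT day 16. With those genes removed the positions were 0.456 and 0.499. Blood cell markers were present in all 4 libraries: the leukocyte surface gene SPN had 656 and 753 CPM on UT day 14, against 598 and 635 CPM on UT day 12, and was not called (log2 fold change 0.19, adjusted p = 0.407). SPN is not particular to progenitors. Among progenitor markers, CD34 (-1.32), KIT (-1.52), TAL1 (-0.77) and RUNX1 (-0.44) were called lower and MYB (0.80) higher on the log2 scale. PTPRC (0.16) and LMO2 (-0.18) were not called. Of 15 pluripotency genes, POU5F1, SOX2, PRDM14 and FOXD3 had 0 counts in all 4 libraries. The 9 that passed the filter summed to 130.4 and 149.8 CPM on UT day 14, against 187 and 220.5 CPM on UT day 12. Of these 9, 2 were called lower and none higher. The libraries are bulk RNA, so fewer cells of a type and less RNA per cell cannot be told apart.

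Over these 2 days, 6687 genes changed at an adjusted p under 0.05 (edgeR quasi-likelihood test, Benjamini-Hochberg), which is 33.2% of the genes tested. Of these, 3188 (15.8% of genes tested) were higher on UT day 14 and 3499 (17.4%) were lower. Protein-coding genes were called more often than all genes: 40.5% of 14811 tested, 2673 higher and 3325 lower. Counts of called list members given below are to be read beside these shares. At least 2-fold changes were called for 1423 genes (7.07%) that rose and 1466 genes (7.29%) that fell. The median log2 fold change over all genes tested was 0.02. Without UT day 12 replicate 2 the count of called genes was 4441, and between 4828 and 5513 without each of the other libraries. In the plot of the lists, granule, eosinophil, monocyte and MHC class II genes lay to the right, and megakaryocyte, erythroid, endothelial and cholesterol synthesis genes to the left. Shares called below that of all genes were those of the mitochondrially encoded mRNA (30.8%), lymphoid (21.1%), HOX (18.2%), and fibroblast and stromal (10%) lists, among others.

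**Figure D1:**
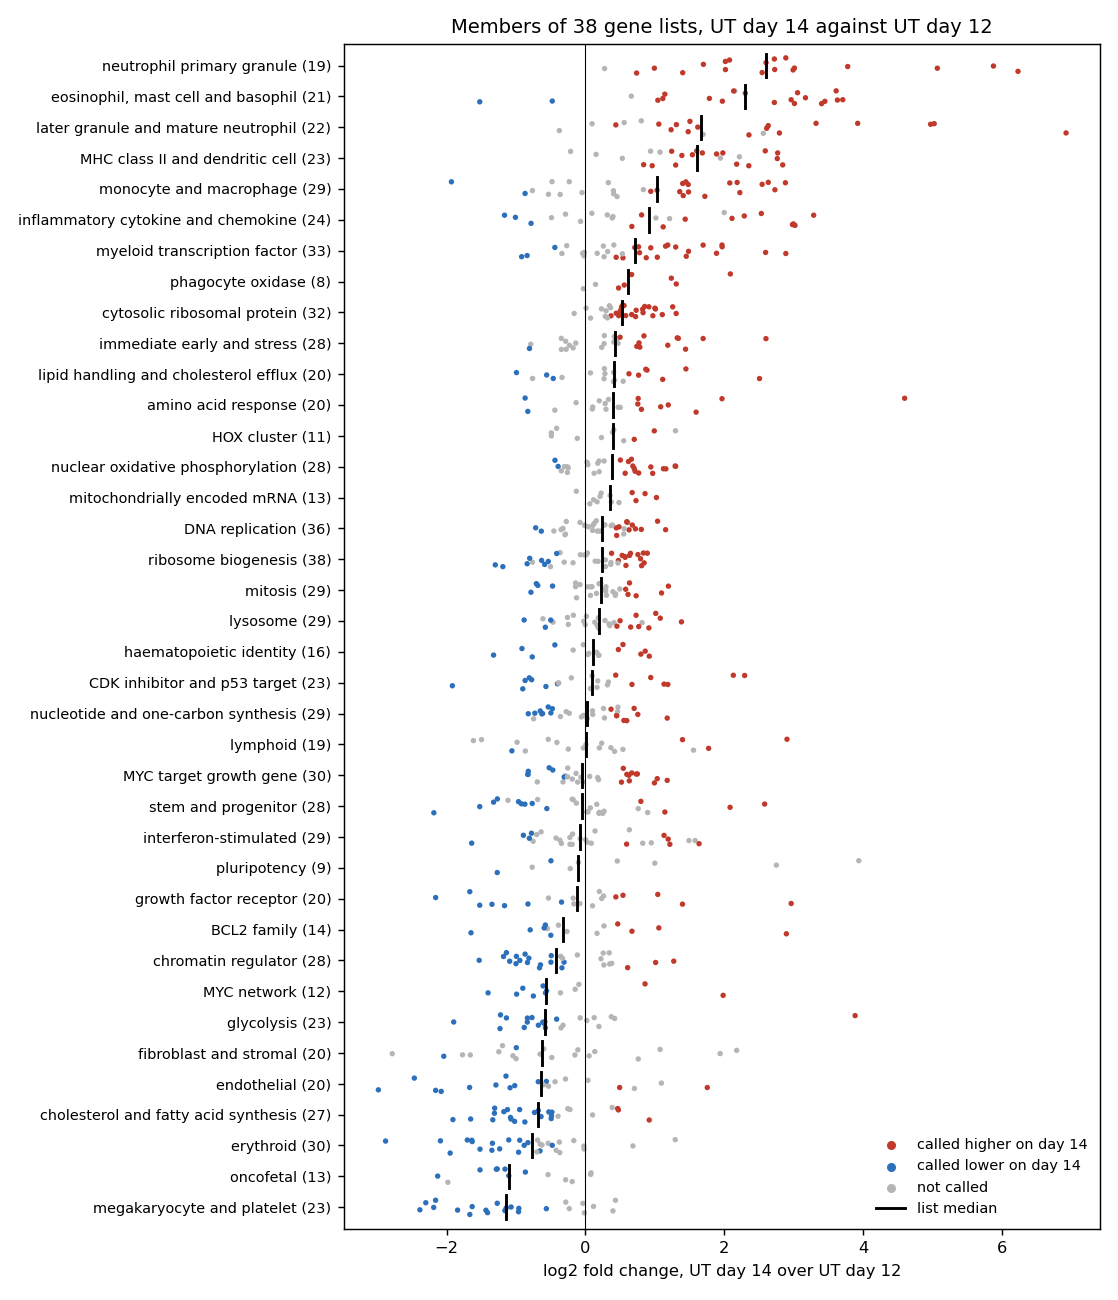
Log2 fold change of UT day 14 over UT day 12 for the tested members of 38 gene lists, ordered by list median; the number of tested members stands in brackets, each point is a gene, red and blue points were called higher and lower at an adjusted p under 0.05, and black bars are medians. The primary granule list has the highest median (2.60) and the megakaryocyte and platelet list the lowest (-1.14).

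Genes of eosinophils, mast cells and basophils rose together and by some of the largest factors in the data. Of 21 tested members, 17 rose and 2 fell, with a median log2 fold change of 2.30, against 33.2% called and a median of 0.02 over all genes. Their summed level was 10190 and 10090 CPM on UT day 14, against 1363 and 1103 CPM on UT day 12. The list's genes FCER1A and CMA1, a receptor chain and a protease of mast cells, had 0 counts in all 4 libraries.

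PRG2 (chr11:57386794-57390657, minus strand, in GENCODE 29 on GRCh38) encodes eosinophil major basic protein, the core of the eosinophil granule. It had 5661 and 6418 CPM in the UT day 14 libraries, against 635 and 509 CPM in the UT day 12 libraries. All 4 values lie apart by group, and the gene rose (log2 fold change 3.40, SE 0.209, adjusted p = 9.58e-09). Its neighbour and homologue PRG3 had 439 and 410.2 CPM on UT day 14, against 42.9 and 34.9 CPM on UT day 12 (log2 fold change 3.45, SE 0.207, adjusted p = 7.79e-09). CLC, the Charcot-Leyden crystal protein (galectin-10), had 1601 and 1575 CPM on UT day 14 and 142 and 102 CPM on UT day 12. The UT day 14 replicates of CLC differed little, and its rise was among those with the smallest p (log2 fold change 3.71, SE 0.200, adjusted p = 2.52e-09).

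IL5RA, the receptor chain through which interleukin 5 acts on eosinophils, had 34.9 and 29.4 CPM on UT day 14, against 4.68 and 3.59 CPM on UT day 12 (log2 fold change 2.96, SE 0.195, adjusted p = 1.61e-08). HPGDS, the haematopoietic prostaglandin D synthase of mast cells and other immune cells, had 18.4 and 16.5 CPM on UT day 14, against 1.62 and 1.21 CPM on UT day 12 (log2 fold change 3.63, SE 0.239, adjusted p = 1.61e-08). In both genes the groups do not overlap. RNASE2, the eosinophil-derived neurotoxin, had 209.5 and 84.7 CPM on UT day 14, against 20.2 and 16.4 CPM on UT day 12 (log2 fold change 3.01, SE 0.297, adjusted p = 9.18e-07). Its UT day 14 libraries stand far apart, and the lower one is still well above UT day 12. TPSB2, a tryptase of mast cells that has a near-identical copy and is therefore uncertain, had 1.67 and 1.6 CPM on UT day 14, against 0.170 and 0.0967 CPM on UT day 12 (log2 fold change 3.61). The 2 members that fell were KIT, the stem cell factor receptor shared by mast cells and progenitors, and the transcription factor GATA1 (log2 fold change -0.48, adjusted p = 0.00479), whose call was lost without UT day 14 replicate 2.

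Promoters of 3 of these risers and of THBS1, the platelet gene with the largest fall in its list, are shown to let the start regions of genes that moved in opposite directions be read side by side. Each runs from 250 bases before to 50 bases after the RefSeq start site (GRCh38.p14), in the direction of the gene, and 12470 of the 20115 tested genes matched such an entry. PRG2 had none. Capitals mark matches on either strand to the letters AGATAA, known for GATA factors, or GAGGAAG, known for PU.1; TTGCNNAA, known for C/EBP factors, was also searched and had no match here.
CLC (chr19:39737980-39738279, minus strand): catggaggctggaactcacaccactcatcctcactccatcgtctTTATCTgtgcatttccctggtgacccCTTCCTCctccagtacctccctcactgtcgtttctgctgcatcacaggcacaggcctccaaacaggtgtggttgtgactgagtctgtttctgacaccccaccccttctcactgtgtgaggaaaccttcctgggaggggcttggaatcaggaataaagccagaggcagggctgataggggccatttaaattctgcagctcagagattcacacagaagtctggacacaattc
HPGDS (chr4:94342787-94343086, minus strand): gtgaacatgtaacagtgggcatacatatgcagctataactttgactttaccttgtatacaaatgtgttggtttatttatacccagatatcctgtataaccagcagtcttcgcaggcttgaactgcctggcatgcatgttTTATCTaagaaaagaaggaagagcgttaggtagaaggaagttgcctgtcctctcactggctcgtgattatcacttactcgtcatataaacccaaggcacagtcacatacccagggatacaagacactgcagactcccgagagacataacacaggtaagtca
PRG3 (chr11:57381101-57381400, minus strand): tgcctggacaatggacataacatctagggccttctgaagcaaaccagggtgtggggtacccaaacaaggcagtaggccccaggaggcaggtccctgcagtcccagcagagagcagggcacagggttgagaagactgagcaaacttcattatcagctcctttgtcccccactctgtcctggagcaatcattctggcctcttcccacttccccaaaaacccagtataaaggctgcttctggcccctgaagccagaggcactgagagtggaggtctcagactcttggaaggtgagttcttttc
THBS1 (chr15:39580829-39581128, plus strand): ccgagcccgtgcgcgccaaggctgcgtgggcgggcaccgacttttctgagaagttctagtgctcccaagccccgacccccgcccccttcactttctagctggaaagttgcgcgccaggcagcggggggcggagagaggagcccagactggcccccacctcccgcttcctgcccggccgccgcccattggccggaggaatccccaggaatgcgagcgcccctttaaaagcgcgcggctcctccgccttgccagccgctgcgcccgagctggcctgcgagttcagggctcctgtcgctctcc
CLC held 1 match to each of AGATAA and GAGGAAG, both on the minus strand relative to the printed sequence, and HPGDS held 1 match to AGATAA. PRG3 and THBS1 held none of the searched letters in this window. Among promoters of genes tested, 5.95% held AGATAA, 7.45% held TTGCNNAA and 14.7% held GAGGAAG; over all 27305 promoters the shares were 10.5%, 10.6% and 13.4%. Of 820 promoters of genes called at least 2-fold higher, 6.83% held AGATAA, 10.2% TTGCNNAA and 17.2% GAGGAAG. Of 1034 promoters of genes called at least 2-fold lower, the shares were 6.67%, 6.29% and 14.3%. The share with AGATAA was thus close in both directions, and differences in these shares were not tested. The promoters printed are examples, so no difference between risers and fallers is read from them. A match is a description of letters and not a binding site.

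Neutrophil primary granule genes rose almost as a block. Of 19 tested members 18 rose, none fell, and the median log2 fold change was 2.60. MPO, myeloperoxidase, was already well above its UT day 10 mean of 527 CPM by day 12. It had 1837 and 1973 CPM on UT day 14, against 1261 and 1026 CPM on UT day 12, which is a smaller rise than its list's median (log2 fold change 0.74, SE 0.157, adjusted p = 0.00123). LYZ, lysozyme, had 384 and 250 CPM on UT day 14, against 132 and 108 CPM on UT day 12 (log2 fold change 1.4, SE 0.198, adjusted p = 2.78e-05).

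The serine protease ELANE, neutrophil elastase, had 2.77 and 1.87 CPM on UT day 14, against 0.226 and 0.113 CPM on UT day 12 (log2 fold change 3.78, SE 0.498, adjusted p = 1.46e-05). DEFA4, a defensin, had 15.6 and 13.5 CPM on UT day 14, against 0.604 and 0.274 CPM on UT day 12 (log2 fold change 5.07, SE 0.352, adjusted p = 2.8e-08). Neither gene's groups overlap. The defensin copies DEFA1, DEFA1B and DEFA3 are near-identical, so how reads were split between them is uncertain. Counted together they had 49.9 and 48.8 CPM on UT day 14, against 0.472 and 0.290 CPM on UT day 12.

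CEBPE is the transcription factor that granulocytes need to pass into the later granule stages. It had 26.4 and 28.7 CPM on UT day 14, against 4.32 and 3.16 CPM on UT day 12 and rose (log2 fold change 2.88, SE 0.235, adjusted p = 1.31e-07). Of genes of later granules and mature neutrophils, 16 of 22 tested members rose and none fell, with a median log2 fold change of 1.66, or 1.56 with the 2 members that had 0 counts on UT day 12 set to their lower bounds. S100A8, a calcium-binding protein stored in the cytosol of neutrophils and monocytes, had 138 and 117 CPM on UT day 14, against 23.6 and 17.4 CPM on UT day 12 (log2 fold change 2.63, SE 0.224, adjusted p = 2e-07). MMP25, a membrane-bound metalloproteinase of neutrophils, had 17.5 and 15.8 CPM on UT day 14, against 1.98 and 1.37 CPM on UT day 12 (log2 fold change 3.32, SE 0.190, adjusted p = 3.96e-09), but an antisense gene, MMP25-AS1, overlaps it, and whether counting used strand is not given in the sources used here. ARG1, arginase, had 1.59 and 1.4 CPM on UT day 14, against 0.113 and 0.0805 CPM on UT day 12 (log2 fold change 3.92, SE 0.590, adjusted p = 6.43e-05).

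Some markers of fully mature neutrophils were at or close to 0. PGLYRP1, a peptidoglycan-binding protein of late granules, had 0 counts in both UT day 12 libraries and 0.368 and 0.334 CPM on UT day 14, at least 6.69-fold higher with a floor of 3 counts per library. MMP8, the collagenase of late granules, had 0 counts in all 4 libraries, and CD177 had 2 and 3 counts on UT day 14, against 1 and 0 counts on UT day 12.

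**Figure D2:**
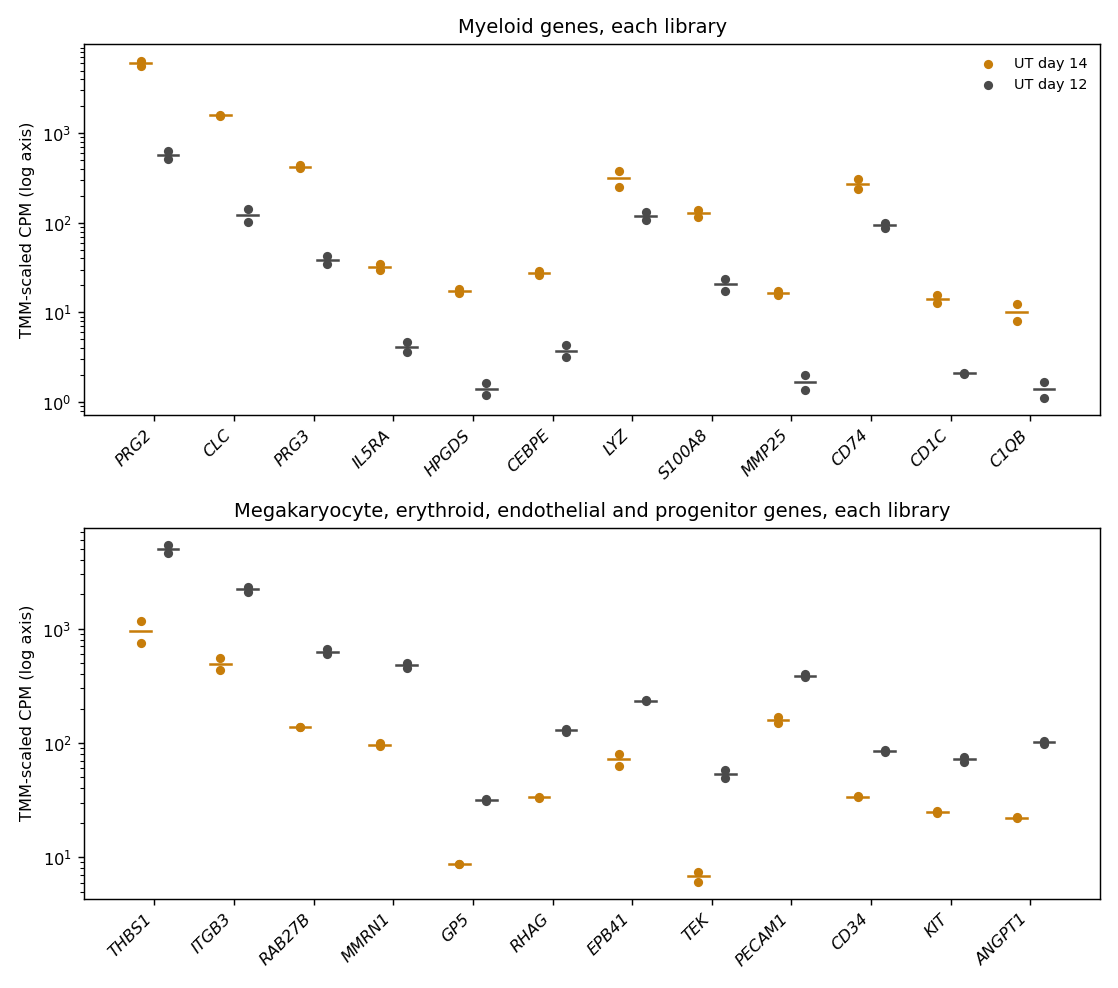
TMM-scaled CPM (log axis) of 24 genes in each UT day 14 (orange, left) and UT day 12 (grey, right) library; short lines are means of 2 libraries. In every gene drawn the 2 groups do not overlap, with the myeloid genes higher and the megakaryocyte, erythroid, endothelial and progenitor genes lower on UT day 14. Over all genes tested 71.9% do not overlap.

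Monocyte and macrophage genes also rose. Of 29 tested members 16 rose and 2 fell, with a median log2 fold change of 1.03. CD14, a receptor for bacterial lipopolysaccharide, had 4.81 and 2.09 CPM on UT day 14, against 0.622 and 0.419 CPM on UT day 12 (log2 fold change 2.73, SE 0.448, adjusted p = 0.00012), a low level with a wide gap between the UT day 14 libraries. C1QB, a chain of complement C1q made by macrophages, had 12.4 and 7.96 CPM on UT day 14, against 1.66 and 1.11 CPM on UT day 12 (log2 fold change 2.88, SE 0.414, adjusted p = 3.31e-05). GPNMB, a membrane protein of macrophages, had 3.24 and 3.25 CPM on UT day 14, against 0.698 and 0.419 CPM on UT day 12 (log2 fold change 2.54). The scavenger receptor genes MSR1 and MARCO did not pass the filter and had at most 9 counts in a library. The members that fell were the chemokine receptor gene CX3CR1 (log2 fold change -1.93) and LYVE1 (-0.87), a hyaluronan receptor of some macrophages and of lymphatic endothelium. The call of LYVE1 was lost without UT day 14 replicate 2 or UT day 12 replicate 1.

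Antigen presentation genes of MHC class II and dendritic cells rose in 16 of 23 tested members with none falling and a median log2 fold change of 1.6. CD74, the invariant chain that escorts MHC class II proteins, had 307 and 239.8 CPM on UT day 14, against 100.2 and 88.0 CPM on UT day 12 (log2 fold change 1.54, SE 0.173, adjusted p = 2.88e-06). CIITA, the master activator of this gene family, rose by 0.96 on the log2 scale (adjusted p = 0.0338), a call lost when any 1 of the 4 libraries was left out. CD1C, which presents lipids on a class of dendritic cells, had 15.5 and 12.8 CPM on UT day 14, against 2.07 and 2.09 CPM on UT day 12 (log2 fold change 2.76, SE 0.260, adjusted p = 5.75e-07). CCR7, the chemokine receptor that guides dendritic cells to lymph nodes, had 7.0 and 4.12 CPM on UT day 14, against 0.943 and 0.902 CPM on UT day 12 (log2 fold change 2.59). HLA-DQB1 rose by 2.77 and HLA-DRA by 1.89 on the log2 scale; HLA genes have close relatives, so their counts are uncertain.

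The phagocyte oxidase makes superoxide in granulocytes and macrophages, and 6 of its 8 genes rose, none fell. CYBA, its small membrane subunit, had 130.4 and 96.0 CPM on UT day 14, against 49.9 and 41.6 CPM on UT day 12 (log2 fold change 1.31, SE 0.208, adjusted p = 8.64e-05). CYBB, the catalytic subunit, had 120.1 and 108 CPM on UT day 14, against 81.0 and 73.5 CPM on UT day 12, a change of 0.56 (adjusted p = 0.00205). NCF1, a cytosolic subunit with near-identical pseudogenes and therefore uncertain, rose by 2.09 on the log2 scale.

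Among transcription factors of myeloid cells, 19 of 33 rose and 3 fell, RUNX1 (-0.44), STAT3 (-0.84) and ZEB2 (-0.92). Risers included members of the C/EBP family. CEBPB, which acts in inflammation and emergency granulocyte production, had 53.5 and 47.3 CPM on UT day 14, against 14.8 and 11 CPM on UT day 12 (log2 fold change 1.97, SE 0.168, adjusted p = 2e-07), and CEBPD had 32.4 and 29.6 CPM on UT day 14, against 8.88 and 7.88 CPM on UT day 12 (log2 fold change 1.89, SE 0.193, adjusted p = 1.27e-06). KLF2, a factor that restrains activation of leukocytes and endothelium, had 12.1 and 11.8 CPM on UT day 14, against 2.43 and 1.55 CPM on UT day 12 (log2 fold change 2.59, SE 0.310, adjusted p = 5.3e-06). RUNX2 had 2.10 and 2.92 CPM on UT day 14, against 0.585 and 0.693 CPM on UT day 12 (log2 fold change 1.97). SPI1, which encodes PU.1, the factor that directs myeloid fate, changed less, by 0.54 (adjusted p = 0.02), and the groups of these factors do not overlap. The calls of SPI1 and RUNX1 were each lost without UT day 12 replicate 1 or 2 and with library sizes alone in place of TMM, that of SPI1 also without UT day 14 replicate 1, and that of RUNX1 without UT day 14 replicate 2 and with only the groups compared in the fit. With the trend with transcript length removed SPI1 and ZEB2 were not called, RUNX1 had no call and a value of 0.05, and 18 factors rose and 1 fell.

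Secreted signals moved as well. Of 24 tested cytokine and chemokine genes 11 rose and 3 fell, with 7 risers when UT day 12 replicate 2 was left out. OSM, oncostatin M, had 12.7 and 6.21 CPM on UT day 14, against 1.30 and 0.644 CPM on UT day 12 (log2 fold change 3.29, SE 0.407, adjusted p = 7.53e-06). CCL3, a chemokine of macrophages, had 8.17 and 7.43 CPM on UT day 14, against 1.25 and 0.693 CPM on UT day 12 (log2 fold change 3.02, SE 0.272, adjusted p = 3.65e-07), and CCL22, which dendritic cells and macrophages secrete, had 19.6 and 16.3 CPM on UT day 14, against 3.54 and 2.69 CPM on UT day 12 (log2 fold change 2.53, SE 0.285, adjusted p = 2.9e-06). LIF had 10.4 and 3.84 CPM on UT day 14, against 1.04 and 0.757 CPM on UT day 12, with the UT day 14 libraries more than the whole UT day 12 level apart (log2 fold change 2.99). The members that fell were TGFB1, a growth-restraining cytokine, with 332 and 204 CPM on UT day 14, against 599.8 and 602 CPM on UT day 12 (log2 fold change -1.17), CXCL3 (-0.78) and CXCL5 (-1.01), whose call was lost when any 1 of the 4 libraries was left out.

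Megakaryocyte and platelet genes fell as a group: 16 of 23 tested members fell, none rose, and the median log2 fold change was -1.14. Their summed level was 6122 and 6329 CPM on UT day 14, against 14720 and 16120 CPM on UT day 12. THBS1 (chr15:39581079-39599466, plus strand), thrombospondin 1 of platelet alpha granules, had 1162 and 754 CPM in the UT day 14 libraries, against 4586 and 5425 CPM in the UT day 12 libraries. The UT day 14 replicates of THBS1 differ, but both are far below UT day 12 (log2 fold change -2.38, SE 0.271, adjusted p = 3.25e-06).

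ITGB3, the beta chain of the fibrinogen receptor, had 551 and 438 CPM on UT day 14, against 2094 and 2325 CPM on UT day 12 (log2 fold change -2.16, SE 0.278, adjusted p = 1.13e-05). RAB27B, which guides platelet granules to the membrane, had 138 and 138 CPM on UT day 14, against 595 and 661 CPM on UT day 12 (log2 fold change -2.19, SE 0.185, adjusted p = 1.94e-07). MMRN1, multimerin of platelet granules, had 99.0 and 94.6 CPM on UT day 14, against 451 and 502 CPM on UT day 12 (log2 fold change -2.30). GP5, a chain of the von Willebrand factor receptor complex, had 8.81 and 8.81 CPM on UT day 14, against 30.9 and 32.3 CPM on UT day 12 (log2 fold change -1.84). The alpha chain of the fibrinogen receptor, ITGA2B, fell less, by 1.07 on the log2 scale (adjusted p = 1.82e-05). For all 5 genes the groups do not overlap.

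Erythroid genes fell too, 17 of 30 tested members with none rising and a median log2 fold change of -0.76. RHAG, a membrane glycoprotein of the Rhesus complex, had 33.7 and 33.2 CPM on UT day 14, against 125 and 134 CPM on UT day 12 (log2 fold change -1.95, SE 0.171, adjusted p = 2.77e-07). EPB41, protein 4.1 of the red cell skeleton, had 80.7 and 62.8 CPM on UT day 14, against 235 and 232 CPM on UT day 12 (log2 fold change -1.70, SE 0.169, adjusted p = 9.91e-07). SPTB, beta spectrin of that skeleton, had 7.32 and 6.39 CPM on UT day 14, against 27.5 and 30.8 CPM on UT day 12 (log2 fold change -2.09). SLC4A1, the band 3 anion exchanger, was low, with 0.184 and 0.351 CPM on UT day 14, against 1.79 and 2.17 CPM on UT day 12 (log2 fold change -2.88). The embryonic globin HBZ had 14.7 and 13.8 CPM on UT day 14, against 37.5 and 44.1 CPM on UT day 12 (log2 fold change -1.52, SE 0.287, adjusted p = 0.000442). HBD, the delta chain, had 30.8 and 27.0 CPM on UT day 14, against 55.8 and 57.0 CPM on UT day 12 (log2 fold change -0.96, adjusted p = 0.000341). HBA1, HBA2, HBB, HBE1, HBG1 and HBG2 were not called. HBE1, the embryonic epsilon chain, had 523 and 738 CPM on UT day 14, against 878 and 953 CPM on UT day 12 (log2 fold change -0.54, adjusted p = 0.0827), and the fetal HBG2, which is nearly identical to HBG1 and so uncertain, had 591 and 720.3 CPM on UT day 14, against 949.6 and 1112 CPM on UT day 12 (adjusted p = 0.0778).

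Endothelial genes fell, 11 of 20 tested members, and 2 rose. TEK, the receptor of angiopoietins, had 6.10 and 7.48 CPM on UT day 14, against 49.5 and 57.8 CPM on UT day 12 (log2 fold change -2.98, SE 0.343, adjusted p = 3.71e-06). CDH5, the cadherin of endothelial junctions, had 2.24 and 2.12 CPM on UT day 14, against 9.90 and 8.52 CPM on UT day 12 (log2 fold change -2.08, SE 0.223, adjusted p = 1.93e-06). PECAM1, which endothelium shares with platelets and myeloid cells, had 168 and 149.5 CPM on UT day 14, against 374 and 401 CPM on UT day 12 (log2 fold change -1.29, SE 0.141, adjusted p = 2.31e-06). The list's members that rose were CXCR4, a chemokine receptor found on many blood cells, with 15.8 and 15.8 CPM on UT day 14, against 5.13 and 4.24 CPM on UT day 12 (log2 fold change 1.75, SE 0.217, adjusted p = 7.37e-06), and EGFL7 (0.49). Fibroblast and stromal genes had a median of -0.63, with 2 of 20 called, LOX (-2.04) and PDGFRB (-1.0), both lower. The calls of EGFL7 and PDGFRB were lost without UT day 14 replicate 2, among others. With no filter 1 was higher and 8 were lower, and with only the groups compared in the fit 3 were higher and 8 lower.

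Oncofetal genes, which mark embryonic and fetal stages, fell in 7 of 13 tested members and rose in none (53.8% called, beside 40.5% of protein-coding genes). LIN28B, an RNA-binding protein that keeps let-7 microRNAs low, had 32.1 and 35.2 CPM on UT day 14, against 79.0 and 84.8 CPM on UT day 12 (log2 fold change -1.28, SE 0.147, adjusted p = 3.5e-06). Its relative LIN28A had 25.9 and 36.9 CPM on UT day 14, against 64.6 and 86.8 CPM on UT day 12 (log2 fold change -1.27, SE 0.304, adjusted p = 0.00314), and IGF2BP3, a fetal mRNA-binding protein, had 28.3 and 26.4 CPM on UT day 14, against 59.2 and 63.1 CPM on UT day 12 (log2 fold change -1.16, SE 0.118, adjusted p = 1.19e-06). In all these genes the UT day 14 libraries were below both UT day 12 libraries.

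Stem and progenitor genes were split, 4 higher and 9 lower of 28 tested, with a median of -0.06. The share called was 46.4%, beside 40.5% of protein-coding genes. CD34, the surface marker of blood progenitors, had 34.2 and 33.5 CPM in the UT day 14 libraries, against 83.6 and 86.0 CPM in the UT day 12 libraries (log2 fold change -1.32, SE 0.277, adjusted p = 0.00105). KIT had 24.4 and 25.5 CPM on UT day 14, against 68.7 and 74.8 CPM on UT day 12 (log2 fold change -1.52, SE 0.221, adjusted p = 3.63e-05). ANGPT1, the ligand of TEK, had 21.9 and 22.6 CPM on UT day 14, against 97.4 and 105 CPM on UT day 12 (log2 fold change -2.18, SE 0.183, adjusted p = 1.85e-07). TAL1, a factor of blood and megakaryocyte-erythroid fate, had 247 and 259 CPM on UT day 14, against 414 and 447 CPM on UT day 12 (log2 fold change -0.77). The groups do not overlap in any of the genes that fell here. MYB, a factor of dividing progenitors, went the other way, with 78.2 and 105 CPM on UT day 14, against 55.6 and 49.8 CPM on UT day 12 (log2 fold change 0.80, SE 0.169, adjusted p = 0.00118), as did GATA2, a factor of progenitors and mast cells (log2 fold change 1.14), and CD38 (2.58) at a level of at most 1.4 CPM. AVP, the remaining riser (2.08), was no longer called when any 1 of the 4 libraries was left out.

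Receptors for growth factors fell in 7 and rose in 5 of 20 tested genes (60% called, beside 40.5% of protein-coding genes). IL6ST, the gp130 chain shared by receptors of interleukin 6 and its relatives, had 88.8 and 73.2 CPM on UT day 14, against 353 and 371 CPM on UT day 12 (log2 fold change -2.16, SE 0.168, adjusted p = 9.02e-08). IL2RG, the chain shared by receptors of interleukin 2 and its relatives, had 69.5 and 56.0 CPM on UT day 14, against 25.6 and 22.1 CPM on UT day 12 (log2 fold change 1.4, SE 0.164, adjusted p = 4.47e-06). The other risers were IL5RA, CSF2RA (1.04), a chain of the GM-CSF receptor, IL4R (0.54) and CSF3R (0.44), the G-CSF receptor, whose call was lost when any 1 of the 4 libraries was left out.

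MYC itself fell, with 88.7 and 58.0 CPM in the UT day 14 libraries, against 126 and 121 CPM in the UT day 12 libraries (log2 fold change -0.75, SE 0.243, adjusted p = 0.0228). UT day 14 libraries were both lower than UT day 12 libraries, and they differed from each other by more than the UT day 12 libraries did. The call was lost without UT day 14 replicate 2, without UT day 12 replicate 1 and without UT day 12 replicate 2. The MYC mean was 149 CPM on UT day 10 and 53.3 CPM on UT day 16, on either side of the step. Of the 12 tested genes of the MYC network, 7 fell and 2 rose, so 75% were called, beside 40.5% of protein-coding genes. With the trend with transcript length removed 5 fell and 2 rose, and the median went from -0.57 to -0.25. MAX, the obligate partner of MYC, had 216 and 202 CPM on UT day 14, against 320.3 and 317 CPM on UT day 12 (log2 fold change -0.61, SE 0.109, adjusted p = 0.000262). The relative MYCN had 11.6 and 10.9 CPM on UT day 14, against 29.5 and 30.1 CPM on UT day 12 (log2 fold change -1.40, SE 0.259, adjusted p = 0.00035), while MYCL had 7.17 and 6.26 CPM on UT day 14, against 1.62 and 1.77 CPM on UT day 12 and rose (log2 fold change 1.98, SE 0.411, adjusted p = 0.00098). The other riser was MXD3 (0.86), a repressor that pairs with MAX, with a call lost without UT day 14 replicate 1 or UT day 12 replicate 2.

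Genes known as MYC targets in growth moved in both directions: 11 of 30 tested members rose and 6 fell, with a median of -0.05. Without UT day 14 replicate 2 these counts were 11 and 3, and with each library's trend with transcript length removed (described with the length results) 7 and 9. NME1, a nucleoside diphosphate kinase, had 94.9 and 129 CPM on UT day 14, against 50.4 and 48.6 CPM on UT day 12 (log2 fold change 1.18, SE 0.155, adjusted p = 1.38e-05). MRTO4, a ribosome assembly factor, had 62.0 and 70.9 CPM on UT day 14, against 33.2 and 33.5 CPM on UT day 12 (log2 fold change 0.99, SE 0.133, adjusted p = 1.68e-05). TFRC, the transferrin receptor that takes up iron, had 53.7 and 51.9 CPM on UT day 14, against 98.0 and 89.7 CPM on UT day 12 (log2 fold change -0.83, SE 0.117, adjusted p = 2.74e-05).

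Cytosolic ribosomal protein genes rose in 23 of 32 tested members and fell in none, by small factors (median 0.53). RPLP1 had 729 and 779 CPM on UT day 14, against 317 and 293 CPM on UT day 12 (log2 fold change 1.31, SE 0.137, adjusted p = 1.57e-06), and RPS19 had 468 and 542 CPM on UT day 14, against 209 and 215 CPM on UT day 12 (log2 fold change 1.26, SE 0.148, adjusted p = 4.55e-06). With the length trend removed, 11 were higher and 1 lower. Ribosome biogenesis genes were mixed, 14 higher and 8 lower of 38, with 9 and 6 without UT day 14 replicate 2 and 5 and 5 with the length trend removed. The assembly factors UTP20 (-1.30) and WDR3 (-1.19) fell, and RRS1 (0.81) rose. Ribosomal proteins have many pseudogene copies, which makes their counts uncertain.

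DNA replication genes rose in 11 and fell in 2 of 36 tested members. So 36.1% were called, near the 33.2% of all genes tested and below the 40.5% of protein-coding genes. With limma-voom 15 rose and 4 fell. FEN1, the flap endonuclease that finishes lagging strands, had 86.0 and 96.0 CPM on UT day 14, against 46.5 and 42.2 CPM on UT day 12 (log2 fold change 1.04, SE 0.131, adjusted p = 9.32e-06). RFC4, a subunit of the clamp loader, had 50.8 and 82.4 CPM on UT day 14, against 29.3 and 30.5 CPM on UT day 12 (log2 fold change 1.15, SE 0.206, adjusted p = 0.000266). The members that fell were MCM10 (-0.72) and MCM6 (-0.64), both of the machinery that opens DNA for copying. Mitosis genes were split, 6 higher and 4 lower of 29 (34.5% called, again near the share of all genes and below that of protein-coding genes). These counts were 9 and 2 with the length trend removed, 10 and 4 with limma-voom, and 10 and 3 where a gene needed 1 CPM in 2 libraries to be tested. AURKB, the kinase of the chromosomal passenger complex, had 42.8 and 51.9 CPM on UT day 14, against 19.9 and 21.4 CPM on UT day 12 (log2 fold change 1.19, SE 0.130, adjusted p = 2.21e-06), and its partner BIRC5, survivin, had 57.4 and 64.8 CPM on UT day 14, against 29.2 and 28.0 CPM on UT day 12 (log2 fold change 1.09, SE 0.151, adjusted p = 2.13e-05). INCENP, the scaffold of the same complex, fell instead, with 18.5 and 17.1 CPM on UT day 14, against 30.8 and 30.5 CPM on UT day 12 (log2 fold change -0.79, SE 0.156, adjusted p = 7e-04).

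Inhibitors of cyclin-dependent kinases and targets of p53 rose in 7 and fell in 7 of 23 tested genes (60.9% called, beside 40.5% of protein-coding genes). These counts were 4 and 5 without UT day 14 replicate 1 or without UT day 12 replicate 2, and 6 and 4 without UT day 14 replicate 2. CDKN2A, which encodes p16 and ARF, had 1.79 and 1.97 CPM on UT day 14, against 0.358 and 0.403 CPM on UT day 12 (log2 fold change 2.29, SE 0.325, adjusted p = 2.84e-05). GADD45B, a stress-induced growth regulator, had 24.5 and 23.6 CPM on UT day 14, against 6.66 and 4.35 CPM on UT day 12 (log2 fold change 2.13, SE 0.211, adjusted p = 9.4e-07). TP53INP1 had 44.3 and 44.4 CPM on UT day 14, against 161 and 174 CPM on UT day 12 and fell (log2 fold change -1.92, SE 0.212, adjusted p = 2.5e-06). In the BCL2 family 4 of 14 tested genes rose and 5 fell, with 2 and 3 without UT day 12 replicate 2, 3 and 2 without UT day 12 replicate 1, and 2 and 5 without UT day 14 replicate 1. BCL2A1, a survival protein of leukocytes, had 6.12 and 9.20 CPM on UT day 14, against 1.28 and 0.789 CPM on UT day 12 (log2 fold change 2.89, SE 0.291, adjusted p = 1.07e-06), and the death-promoting BCL2L11, known as BIM, had 36.8 and 33.1 CPM on UT day 14, against 110.2 and 109 CPM on UT day 12 (log2 fold change -1.65, SE 0.118, adjusted p = 3.88e-08). BCL2L1, which encodes the survival protein BCL-XL, had 194 and 172 CPM on UT day 14, against 316 and 319.5 CPM on UT day 12 (log2 fold change -0.80, SE 0.106, adjusted p = 1.52e-05). The long noncoding MIR4435-2HG overlaps BCL2L11. Of the BCL2 family list 64.3% were called, beside 40.5% of protein-coding genes.

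Cholesterol and fatty acid synthesis fell broadly. Of 27 tested genes 19 fell and 3 rose, with a median log2 fold change of -0.68, and the summed level was 2687 and 2632 CPM on UT day 14, against 4544 and 4761 CPM on UT day 12. SQLE, squalene epoxidase, had 79.8 and 129 CPM on UT day 14, against 248 and 269 CPM on UT day 12 (log2 fold change -1.31, SE 0.193, adjusted p = 4.27e-05). FADS2 (chr11:61792980-61867354, plus strand), the desaturase that starts long-chain polyunsaturated fat synthesis, had 158 and 123 CPM on UT day 14, against 521 and 531 CPM on UT day 12 (log2 fold change -1.91, SE 0.153, adjusted p = 1.23e-07). In both genes the groups do not overlap. SREBF2, the transcription factor that drives the pathway, fell by 1.02 on the log2 scale (adjusted p = 1.58e-05). The members that rose were MVD (0.47), PMVK (0.92) and FDPS (0.46), 3 enzymes that follow one another between mevalonate and farnesyl diphosphate with only an isomerase between them. The call of MVD was lost without UT day 14 replicate 2 or either UT day 12 replicate, that of FDPS without UT day 12 replicate 1, and none of the 3 was called with the length trend removed.

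Glycolysis genes fell in 14 of 23 tested members, with a median of -0.58. PGK1, phosphoglycerate kinase, had 247 and 263 CPM on UT day 14, against 556 and 566 CPM on UT day 12 (log2 fold change -1.14, SE 0.120, adjusted p = 1.7e-06). ALDOC had 27.0 and 24.1 CPM on UT day 14, against 90.4 and 99.9 CPM on UT day 12 (log2 fold change -1.90, SE 0.201, adjusted p = 1.75e-06), and GAPDH had 1535 and 1114 CPM on UT day 14, against 2081 and 2158 CPM on UT day 12 (log2 fold change -0.68, SE 0.148, adjusted p = 0.00151). HK3, the hexokinase of myeloid cells, was the list's sole riser and one of the strongest in the data, with 20.2 and 11.9 CPM on UT day 14, against 1.36 and 0.838 CPM on UT day 12 (log2 fold change 3.88, SE 0.338, adjusted p = 2.52e-07).

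Among oxidative phosphorylation genes of the nucleus, 14 of 28 tested members rose and 2 fell, NDUFS1 (-0.39) and ATP5F1B (-0.44), or 13 and 4 with the length trend removed. The calls of NDUFS1 and ATP5F1B were lost without UT day 14 replicate 1 or either UT day 12 replicate, and NDUFS1 had a value of 0.31 with the length trend removed. NDUFS3, a complex I subunit, had 53.7 and 63.9 CPM on UT day 14, against 25.1 and 22.6 CPM on UT day 12 (log2 fold change 1.30, SE 0.143, adjusted p = 2.44e-06), and COX6C, a complex IV subunit, had 107 and 128 CPM on UT day 14, against 50.3 and 45.3 CPM on UT day 12 (log2 fold change 1.29, SE 0.180, adjusted p = 2.39e-05). Of the 13 mitochondrially encoded mRNAs 4 were called, all higher, and MT-ND3 among them had 1330 and 1080 CPM on UT day 14, against 605 and 582 CPM on UT day 12 (log2 fold change 1.02, SE 0.185, adjusted p = 0.000297). Without UT day 14 replicate 1, whose mitochondrial share was 17.45%, 2 were higher and 2 lower. The count of higher genes was 7 without UT day 14 replicate 2, 2 without UT day 12 replicate 1, 1 without UT day 12 replicate 2 and 0 with the trend with transcript length removed.

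Lysosome genes rose in 9 and fell in 3 of 29 tested members, with 5 and 3 without UT day 12 replicate 2 and 8 and 5 without UT day 14 replicate 1. CTSS, the cathepsin of antigen-presenting cells, had 18.7 and 19.6 CPM on UT day 14, against 7.88 and 6.83 CPM on UT day 12 (log2 fold change 1.38, SE 0.228, adjusted p = 0.000124), and CTSB had 161 and 130.3 CPM on UT day 14, against 72.0 and 72.2 CPM on UT day 12 (log2 fold change 1.01, SE 0.153, adjusted p = 5.4e-05). Of the lysosome list 41.4% were called, near the 40.5% of protein-coding genes tested. Lipid handling genes rose in 7 and fell in 3 of 20. The largest rise was that of FABP4, a fatty acid carrier, with 4.26 and 5.09 CPM on UT day 14, against 0.905 and 0.741 CPM on UT day 12 (log2 fold change 2.51, SE 0.346, adjusted p = 2.23e-05). Amino acid response genes rose in 8 and fell in 2 of 20, or in 5 and 2 without UT day 12 replicate 1. ATF4, the factor at the head of this response, had 359.9 and 383 CPM on UT day 14, against 216 and 209 CPM on UT day 12 (log2 fold change 0.81, SE 0.119, adjusted p = 4.23e-05). Enzymes of nucleotide and one-carbon synthesis were evenly split, 8 higher and 8 lower of 29 (5 and 6 without UT day 12 replicate 1, 4 and 6 without UT day 12 replicate 2, 8 and 4 with the length trend removed), with PPAT (-0.73), which begins purine synthesis, among the fallers.

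Interferon-stimulated genes showed no common direction, 5 higher and 4 lower of 29 (3 and 4 without UT day 14 replicate 1, 3 and 3 without UT day 12 replicate 2). BST2, tetherin, had 20.0 and 24.0 CPM on UT day 14, against 7.58 and 6.59 CPM on UT day 12 (log2 fold change 1.64, SE 0.268, adjusted p = 0.000119), whereas IFIT2 had 4.5 and 6.48 CPM on UT day 14, against 16.1 and 18.1 CPM on UT day 12 (log2 fold change -1.64, SE 0.299, adjusted p = 0.000317). Immediate early and stress genes rose in 11 of 28 and fell in 1, TXNRD1 (-0.81), with 6 risers when UT day 12 replicate 2 was left out. Of interferon-stimulated genes 31% were called, near the 33.2% of all genes tested. Of immediate early and stress genes 42.9% were called, near the 40.5% of protein-coding genes. IER3 had 24.2 and 22.6 CPM on UT day 14, against 4.64 and 3.11 CPM on UT day 12 (log2 fold change 2.60, SE 0.282, adjusted p = 2.18e-06). Among 19 tested lymphoid genes the 3 that rose were IKZF3 (2.90), NKG7 (1.77) and IL2RG, and CD7 (-1.06) fell, a call lost when any 1 of the 4 libraries was left out. DNTT, RAG2, MS4A1 and VPREB1, markers of B and T cells and their precursors, had 0 counts in all 4 libraries. Chromatin regulators fell in 16 and rose in 3 of 28, including KDM6A, a histone demethylase, with 19.4 and 14.3 CPM on UT day 14, against 35.9 and 36 CPM on UT day 12 (log2 fold change -1.09, SE 0.218, adjusted p = 0.000735), while HMGB2 rose (1.27). With the length trend removed that list had 8 higher and 4 lower. Of 11 tested HOX genes 2 rose, HOXB2 (0.70) and HOXB7 (0.99), and neither was called with the length trend removed, with library sizes alone, with no filter, or without UT day 14 replicate 2 or either UT day 12 replicate.

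Among genes named for the size of their change, PPP1R1B, a phosphatase inhibitor best known from neurons, had 17.1 and 15.1 CPM on UT day 14, against 1.53 and 0.951 CPM on UT day 12 (log2 fold change 3.71, SE 0.198, adjusted p = 2.52e-09). CYP27A1, the sterol 27-hydroxylase, had 5.51 and 3.46 CPM on UT day 14, against 0.340 and 0.306 CPM on UT day 12 (log2 fold change 3.79, SE 0.383, adjusted p = 1.12e-06). DEFA4, HK3, CLC, HPGDS and PRG3, described with their lists, belong to the same 12. UPK3BL1, EIF3CL and DCANP1 are also among them, but UPK3BL1 and EIF3CL have near-identical copies, DCANP1 lies within a region shared with TIFAB, and DEFA1B and UPK3BL1 had 0 counts on UT day 12, so their folds are not given.

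At the other end, AVPR1A, a vasopressin receptor, had 8.0 and 7.91 CPM on UT day 14, against 60.9 and 59.1 CPM on UT day 12 (log2 fold change -2.91, SE 0.253, adjusted p = 2.52e-07). COL2A1, the collagen of cartilage, had 9.78 and 9.83 CPM on UT day 14, against 63.1 and 72.7 CPM on UT day 12 (log2 fold change -2.79, SE 0.321, adjusted p = 3.64e-06). SLITRK6, a membrane protein of neurons and the inner ear, had 0.284 and 0.434 CPM on UT day 14, against 11.4 and 11.8 CPM on UT day 12 (log2 fold change -5.01, SE 0.733, adjusted p = 3.96e-05). FRAS1, a basement membrane protein, had 0.501 and 0.835 CPM on UT day 14, against 7.69 and 8.27 CPM on UT day 12 (log2 fold change -3.57, SE 0.537, adjusted p = 5.15e-05). The COL2A1 mean was 189 CPM on UT day 10, so its level was lower on each later day up to UT day 14. ELN, elastin (-3.21), ATP1B2 (-3.17) and the metallothionein MT2A (-2.91) also belong to the 12 lowest. TEK, described with the endothelial genes, is another. SRCAP, C4B, LIMS3 and ZBED6 are the other 4 of them; each overlaps or nearly matches another gene, and their counts are uncertain.

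The smallest p-values among fallers belonged to LRBA, ATF7IP, NOMO3, BCL2L11, CD46 and ABHD2. LRBA, which holds the checkpoint receptor CTLA4 in recycling vesicles, had 33.4 and 29.8 CPM on UT day 14, against 124 and 130.3 CPM on UT day 12 (log2 fold change -2.01, SE 0.129, adjusted p = 1.61e-08). CD46, a complement regulator on most cells, had 121 and 105 CPM on UT day 14, against 349 and 374 CPM on UT day 12 (log2 fold change -1.67, SE 0.121, adjusted p = 4.13e-08). ATF7IP, which acts with the histone methyltransferase SETDB1, had 39.0 and 38.7 CPM on UT day 14, against 182 and 204 CPM on UT day 12 (log2 fold change -2.31, SE 0.150, adjusted p = 1.61e-08), and ABHD2 had 64.9 and 50.2 CPM on UT day 14, against 237 and 246 CPM on UT day 12 (log2 fold change -2.07, SE 0.153, adjusted p = 5.65e-08).

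Transcript length moved with the direction of change. Genes were sorted into 5 classes of equal size by their longest transcript in GENCODE 29, which gave a length to 19782 tested genes. In the class with the longest transcripts (median 6945 bases) 6.65% were called higher and 40.6% lower, against 20.5% higher and 2.68% lower in the shortest class (median 776 bases). Median log2 fold changes were 0.63, 0.34, 0.04, -0.23 and -0.50 from the shortest to the longest class. Both UT day 14 libraries show this, with medians of 0.46 and 0.58 in the shortest and -0.51 and -0.48 in the longest class against the UT day 12 mean. In the DOX arm the same medians were 0.17 and -0.20 for the shortest and longest classes. The part of length in the results was not tested. With each library's trend removed, an alternative chosen after seeing the data, 5325 genes were called, 2919 higher and 2406 lower. Of these, 4352 were among the 6687 called in the main fit, so many calls were lost and others gained. With the trend removed the primary granule list had 16 higher, the eosinophil, mast cell and basophil list 17 higher and 2 lower, and the megakaryocyte and platelet list 16 lower. Other lists moved. Cytosolic ribosomal protein genes had 11 higher and 1 lower, against 23 and 0 in the main fit. Chromatin regulators had 8 higher and 4 lower, against 3 and 16.

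**Figure D3:**
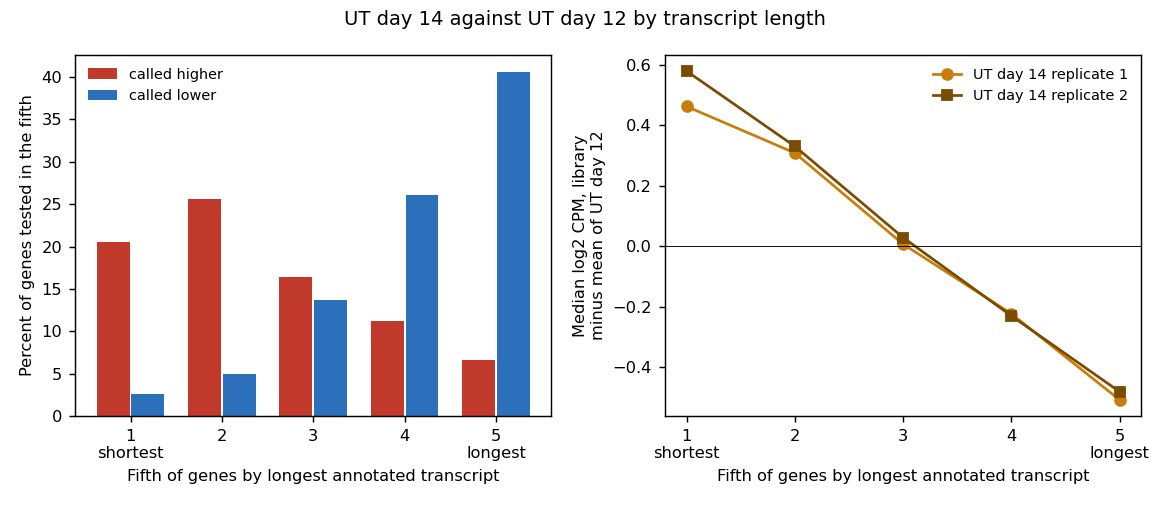
Left, percent of genes called higher (red) and lower (blue) on UT day 14 in 5 classes of genes by longest annotated transcript, shortest first; right, median difference in log2 CPM of each UT day 14 library from the mean of UT day 12 in the same classes. Shares called lower run from 2.68% in the shortest to 40.6% in the longest class, and both libraries lie above 0 in the shortest and below 0 in the longest class.

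The days before and after place this step in the UT course. The UT day 16 libraries had mitochondrial shares of 55.9% and 53.5%, far above those of UT day 12 and UT day 14. PRG2 averaged 6.29 CPM on UT day 10, 572 CPM on UT day 12, 6039 CPM on UT day 14 and 12230 CPM on UT day 16. CLC averaged 2.45 CPM on UT day 10, 122 CPM on UT day 12, 1588 CPM on UT day 14 and 1503 CPM on UT day 16, so its level on UT day 16 was close to that on UT day 14. KIT averaged 96.3, 71.8, 25 and 7.61 CPM on the same 4 days. FADS2 averaged 621, 526, 140.2 and 47.5 CPM.

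**Figure D4:**
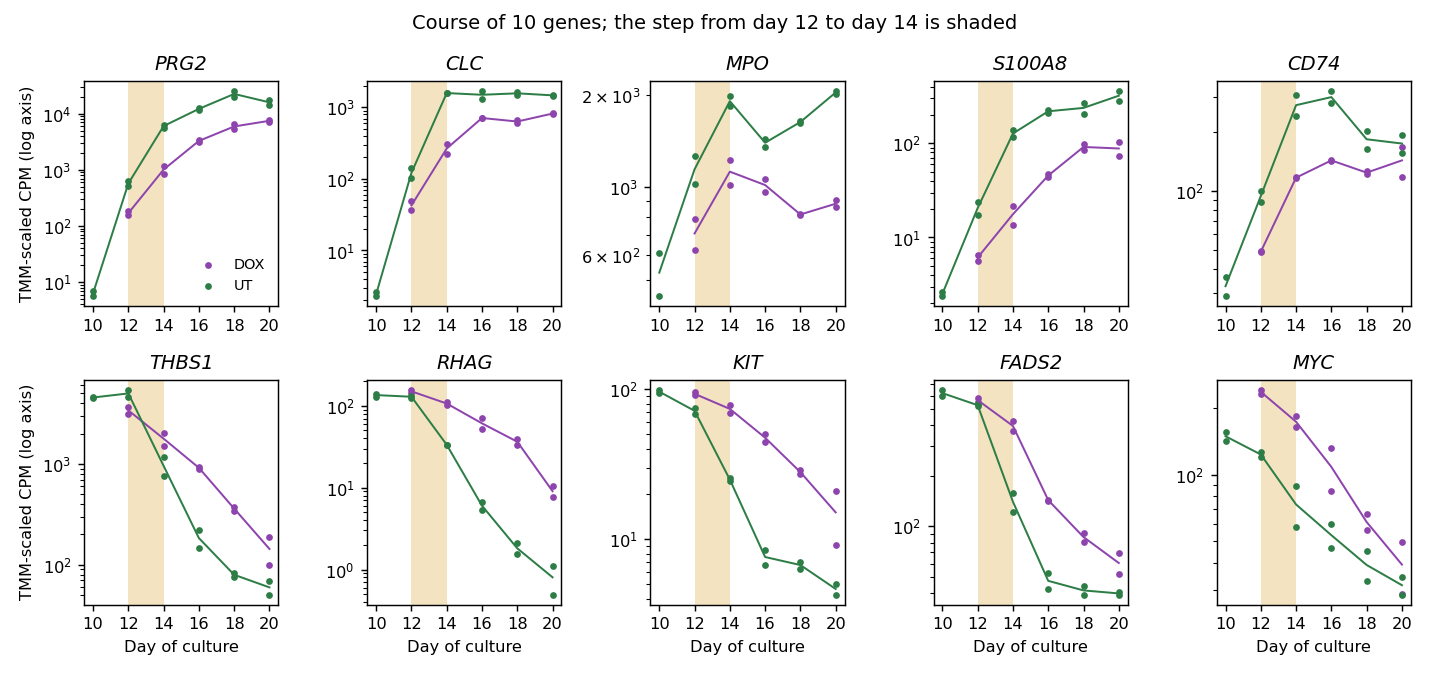
TMM-scaled CPM (log axis) of 10 genes by day of culture in DOX (purple) and UT (green) libraries; points are libraries, lines join means of 2 libraries, and the step from day 12 to day 14 is shaded. In UT cells PRG2, CLC, S100A8 and CD74 climb and THBS1, RHAG, KIT and FADS2 drop within the shaded step, and FADS2 and RHAG drop less there in DOX cells.

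The same 2 days in cells with ectopic MYC were set beside the UT step. MYC averaged 237 CPM on DOX day 12 and 174 CPM on DOX day 14, against 123.5 and 73.4 CPM on the same UT days. Its level in DOX was thus higher than in UT on both days but was not constant. Comparing DOX day 14 with DOX day 12, 1250 genes (6.21% of those tested) were called, 675 (3.36%) higher and 575 (2.86%) lower, and the DOX day 14 libraries had positions of 0.183 and 0.129 on the same line between the UT days. The DOX and UT steps share no libraries, but the test of the difference uses the same UT libraries as the UT step. The test of the difference between the steps, DOX minus UT, called 595 genes (2.96%), of which 361 (1.79%) had a positive and 234 (1.16%) a negative difference. With library sizes alone in place of TMM, 239 were called and 194 of them were positive. This count rests on single libraries: it was 28 without DOX day 14 replicate 2, 46 and 76 without DOX day 12 replicate 1 and 2, 139 without UT day 14 replicate 2, 99 and 51 without UT day 12 replicate 1 and 2, 496 without DOX day 14 replicate 1 and 779 without UT day 14 replicate 1.

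Called differences include genes of several of the groups described above. In FADS2 the log2 fold change was -0.51 in DOX and -1.91 in UT, a difference of 1.4 (SE 0.211, adjusted p = 0.00398). In RHAG it was -0.49 in DOX and -1.95 in UT (difference 1.45, adjusted p = 0.00564). MMP25 rose by 1.22 in DOX and by 3.32 in UT (difference -2.10, adjusted p = 0.00203). These 3 genes, with LRBA (1.28) and NOMO3 (1.66; a gene with near-identical copies, so uncertain), are the named genes whose difference was called without each of the 8 libraries in turn.

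These 5 were also called with the length trend removed and with library sizes alone. Other called differences were lost without at least 1 library. KLF2 changed by 0.38 in DOX and 2.59 in UT (difference -2.22, adjusted p = 0.019). OSCAR, an immunoglobulin-like receptor of osteoclasts and myeloid cells, had a difference of -1.86 (adjusted p = 0.00503) and a UT step of 2.92. CLC had a difference of -1.06 (adjusted p = 0.0327), CEBPB of -1.01 and BCL2L11 of 0.99. The calls of CLC and CEBPB were also lost with the length trend removed and with library sizes alone, and that of CLC with only the groups compared in the fit. In the opposite sense, ANGPT1 (1.45), RAB27B (1.42), GP5 (1.81), THBS1 (1.45), KIT (1.19) and IL6ST (1.12) fell less in DOX than in UT. Of these 6, THBS1, KIT and IL6ST had no called difference with the length trend removed, and THBS1 and KIT had none with library sizes alone. ALDH1L2, an enzyme of mitochondrial folate metabolism, was higher on DOX day 14 by 1.24 and changed by -0.75 in UT, which was not called there (difference 1.99, adjusted p = 0.0157); C12orf45 overlaps it. Other genes with the largest differences were SRCAP (2.50), LIMS3 (2.03), EIF2S3B (1.88), MED12L (1.84), HSH2D (-1.80) and EIF4EBP3 (-1.68). Overlapping or similar genes make their counts uncertain. The metallothionein MT1X (-3.34) also belongs here, and as it has relatives in its gene family its counts are uncertain too. ASDURF, the last of them, had 0 counts on UT day 14 and was at least 55.9-fold lower there than on UT day 12. SRCAP, MED12L and EIF4EBP3 lost their call with the length trend removed, and LIMS3 and EIF4EBP3 with library sizes alone.

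By list, differences between the steps were called for 5 of 23 megakaryocyte and platelet genes and 6 of 27 cholesterol and fatty acid synthesis genes, all positive, and for 4 of 32 ribosomal protein genes, all negative, beside 1.79% of all genes tested with a positive and 1.16% with a negative difference. These counts rest on single libraries. Without DOX day 14 replicate 2, where 28 genes in place of 595 were called in all, they were 0 megakaryocyte and platelet genes, 2 cholesterol and fatty acid synthesis genes and 0 ribosomal protein genes. Leaving out each of the 8 libraries in turn gave 0 to 5, 2 to 10 and 0 to 10 genes in the same order, the ribosomal protein count being 4 or more only without UT day 14 replicate 1 or DOX day 14 replicate 1. With library sizes alone they were 2, 3 and 0 genes, with the length trend removed 3, 3 and 1, and with limma-voom 11, 15 and 11. Of 19 primary granule genes 1 had a called difference, MS4A3, and 15 rose within the DOX step, where 3.36% of all genes tested rose. Of 23 MHC class II and dendritic cell genes none had a called difference, and 14 rose within the DOX step. The absence of a call says little about small differences. In simulated data with 19915 of 20115 genes unchanged, 84.8% of 4-fold but 17.9% of 2-fold differences between the steps were recovered. These shares need not hold for the real data, where 2.96% of genes had a called difference.

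**Figure D5:**
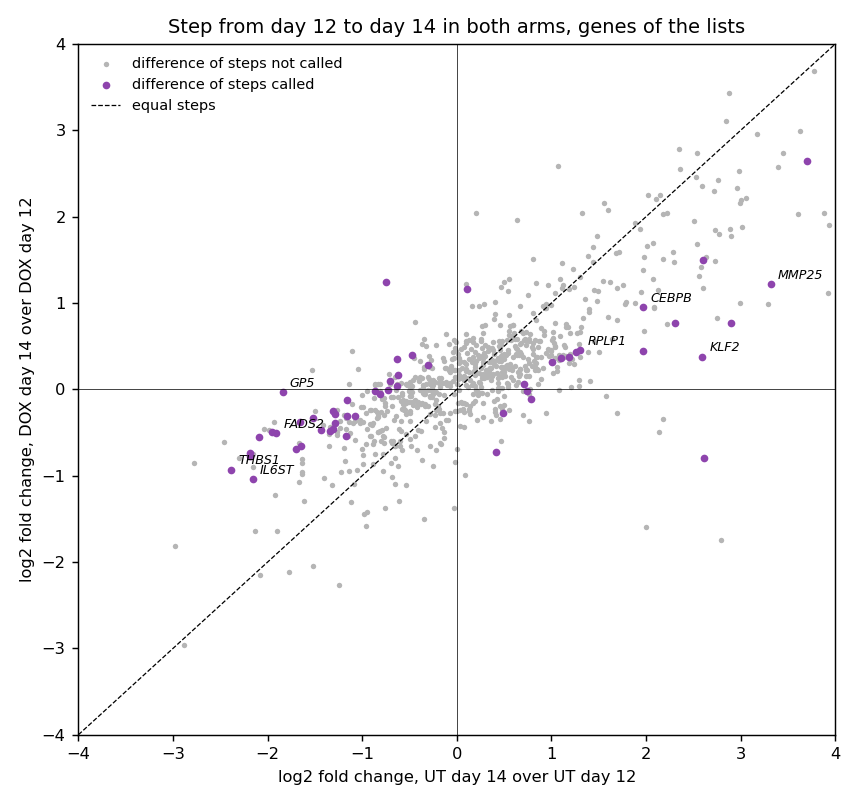
Log2 fold change from day 12 to day 14 in DOX (y axis) against UT (x axis) for 805 of the 812 tested genes of the lists, those within the axes; purple points have a called difference between the steps (52 genes) and the dashed line marks equal steps. FADS2, THBS1 and GP5 lie above the line on the left, and MMP25 and KLF2 below it on the right.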

How the data were processed

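PolyA-selected RNA was sequenced in 22 libraries, of which 4 form the UT step and 8 the comparison of steps. Per the submitters' processing notes, Trim Galore 0.6.5, STAR and Salmon were used with hg38; nothing used here states the STAR or Salmon version, gene annotation, strand setting or filters. The files as deposited hold estimated counts per gene and library, named by the authors as Salmon gene counts. Library totals differ, so the values are not scaled to a common depth. Of the values, 88.3% were whole, and all were rounded to whole numbers here. All 22 columns were used.

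Genes were kept by filterByExpr (minimum count 10) of edgeR 4.0.16 in R 4.3.3, scaled by TMM and fitted by quasi-likelihood with 1 coefficient for each of the 11 groups of arm and day, which share 1 estimate of spread (11 residual degrees of freedom, biological coefficient of variation 0.184). A call is an adjusted p (Benjamini-Hochberg) under 0.05. With 2 libraries against 2, an exact permutation test of a single value cannot go below 0.333. Log2 CPM used a prior count of 2. Positions and transcript lengths came from GENCODE 29, which matched 58020 of 60240 gene identifiers and need not be the annotation used for counting; promoters came from RefSeq (GRCh38.p14). The fit was tested on simulated data.

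Named genes are MYC, genes among the 12 highest and 12 lowest changes and the 6 smallest p in each direction (called, mean of at least 2 CPM, groups not overlapping, no clone or pseudogene name), the 6 highest and 6 lowest differences between the steps, and, per list, its most abundant member and at most 5 called ones by size of change. Genes outside this rule were named after their values were seen, mostly to complete small counts; they are given as values. Results for some genes are not reported here. Members and lists were chosen with earlier results of these data known. The alternatives tried were library sizes alone, size factors of DESeq2, mitochondrial genes removed, no filter, at least 1 CPM in 2 libraries, limma-voom (limma 3.58.1), DESeq2 1.42.0, only the groups compared, a replicate block, each library left out, a 2-fold minimum and, chosen after seeing the data, removal of each library's trend with transcript length.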

Additional observations from a re-analysis of the deposited data

Results flagged for a closer look

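In 42 named genes the step from day 12 to day 14 differed between DOX and UT cells by the test of the difference itself (DOX minus UT, log2, edgeR quasi-likelihood, adjusted p under 0.05). Over all genes tested 2.96% were called, but the named genes include those chosen for this difference or for the UT step that enters it, so nothing is read from their number. Of the 42 calls, 21 were lost with the trend with transcript length removed, 16 with library sizes alone, and 5 to 36 when 1 library was left out, 36 of them without DOX day 14 replicate 2. The difference was negative, a higher step in UT, for MT1X (-3.34), KLF2 (-2.22), IKZF3 (-2.14), MMP25 (-2.10), OSCAR (-1.86), HSH2D (-1.80), EIF4EBP3 (-1.68), MS4A3 (-1.11), CLC (-1.06), CEBPB (-1.01), RPLP1 (-0.85), RPS19 (-0.82) and EGFL7 (-0.77).

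It was positive, a higher step in DOX, for SRCAP (2.50), LIMS3 (2.03), ALDH1L2 (1.99), EIF2S3B (1.88), MED12L (1.84), NOMO3 (1.66), AVPR1A (1.55), LRBA (1.28), ATF7IP (1.28), CD46 (0.70), ABHD2 (0.80) and BCL2L11 (0.99). Among megakaryocyte, erythroid and endothelial genes it was positive for GP5 (1.81), THBS1 (1.45), RAB27B (1.42), SPTB (1.54), RHAG (1.45), EPB41 (1.01) and PECAM1 (0.90). Of these 7 all but RHAG lost the call without DOX day 14 replicate 2, THBS1, SPTB, EPB41 and PECAM1 lost it with the length trend removed, and THBS1 and EPB41 with library sizes alone. Among progenitor, receptor and oncofetal genes it was positive for ANGPT1 (1.45), KIT (1.19), IL6ST (1.12), IGF2BP3 (1.04) and LIN28B (1.00), and among metabolic and replication genes for FADS2 (1.4), SQLE (1.06), MCM6 (0.99) and PPAT (0.73). The fitted difference of ASDURF (9.40) rests on 0 counts on UT day 14 and is no bound.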

How the results depend on the processing

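The UT step called 6687 genes. Counts under other scalings, filters and tools ran from 6217 with library sizes alone to 8445 with limma-voom, and DESeq2 called 7525. With the trend with transcript length removed 5325 were called, 4352 of them shared with the 6687, and at least 2-fold 2889. Leaving out 1 library gave 4441 to 5513, fewer libraries being part of that design. The difference between the steps called 595 genes and moved more: 239 with library sizes alone, 1312 with no filter, 2122 with limma-voom, 1965 with DESeq2, 2478 with only the groups compared, 192 with the length trend removed, 273 at least 2-fold, and 28 to 779 when 1 library was left out. The cause of these moves was not tested. Of 168 named genes called in the UT step, 151 to 158 kept their call without 1 library and 153 with the length trend removed. HBB was not called and turned to 0.0413 with limma-voom, and ranged from -0.49 to 0.71 when 1 library was left out (0.23 without UT day 14 replicate 1). MT1X, not called, ranged from -1.01 to 0.15 in the same way. NDUFS1 turned to 0.31 and RUNX1 to 0.055 with the length trend removed. The labels do not say whether replicate numbers pair the libraries. Deviations of same-numbered UT day 14 and day 12 libraries correlated with 0.0548. Of 55 pairs of groups 5 were over 0.1 (highest 0.195) and 0 under -0.1. These values cannot decide it, since each group gives only 1 difference between replicates. With the replicate number as a block 7201 genes were called in the UT step and 1193 in the difference. The mean position of the UT day 14 libraries moved by less than the spread of replicates with a prior count of 0.5, with the 2000 most variable genes and with mitochondrially encoded genes removed, the settings run for it. In simulated data with 19915 of 20115 genes unchanged, 97.0% of 4-fold, 62.7% of 2-fold and 17.9% of 1.5-fold changes of the UT step were recovered. Small changes were thus often not called in that simulation. The real step called 33.2% of genes, which loosens the Benjamini-Hochberg cut-off, so these shares need not hold for it.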
